A study of Homo sapiens with 7 samples.

Results

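The genes described are 60 human genes for translation initiation and elongation factors. They were chosen by name: every protein-coding gene on chromosomes 1 to 22 and X of the RefSeq gene table for GRCh38.p14 whose symbol begins with EIF1 to EIF6 or with EEF1 or EEF2, leaving out symbols that contain AK. These are 60 of 19630 protein-coding genes with a known strand. The rule uses names alone, but the set was chosen with earlier results of these data known. Taken by name, the set also holds regulators that are not factors themselves, such as the kinase EEF2K, the methyltransferase EEF2KMT and the inhibitors EIF4EBP1 to EIF4EBP3. The measurements were peak lists from chromatin immunoprecipitation sequencing (ChIP-seq) with the antibody 6D7 against phosphothreonine 4 (pThr4) in the heptad repeats of the C-terminal domain (CTD) of RNA polymerase II, in HEK293 cells, an established human embryonic kidney line. Nuclear lysate was divided and incubated in vitro with active SCP1 (WT), an enzyme that strips the phosphate of serine 5 in these repeats, or with its inactive variant D96A, so that all cells had the same growth conditions and only the lysate was treated. Each group had 3 biological replicates, and libraries are named by group and replicate number. The comparison asks where pThr4 became detectable by the antibody once the neighbouring serine 5 phosphate was taken off. A control precipitation with nonspecific IgG was not analysed here.

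Translation initiation factors bring the small ribosomal subunit and the initiator tRNA to the capped 5′ end of an mRNA and find the start codon, and elongation factors deliver each next tRNA and move the ribosome along. Many of these genes are among the most highly transcribed housekeeping genes of dividing cells. Phosphorylation of CTD threonine 4 is known mainly from the later part of the transcription cycle, where RNA polymerase II runs past the polyadenylation site before it terminates.

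The lists were of very unequal length, with 12625, 6680 and 36892 peaks in active replicates 1, 2 and 3 and 2466, 1163 and 2699 peaks in inactive replicates 1, 2 and 3. They hold no read counts, which leaves the sequencing depth unknown. Active replicate 3 stood apart as the longest list, and the peak names of replicate 3 in each group carry another tag (WT_5_2 and DA_5_2) than those of replicates 1 and 2 (WT_10_1, WT_10_2, DA_10_1 and DA_10_2), whose meaning the labels do not give. Results are therefore also given for replicates 1 and 2 alone where they move. A longer list reaches weaker peaks: its lowest −log10 p-value was 3.08 in active replicate 3 and 4.6 in inactive replicate 2. Peak number, threshold and treatment cannot be told apart from the lists as deposited.

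For each gene 3 windows were read: the promoter window, 1000 bp to either side of the transcription start site (TSS), the gene body from there to the transcription end site (TES), and the end zone, the 5000 bp downstream of the TES. A window was counted as having a peak when a listed peak overlapped it by at least 1 bp. Peaks have no strand, so where another gene lies in a window its polymerase and that of the named gene cannot be told apart.

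Many mRNAs of the translation apparatus begin with a 5′ terminal oligopyrimidine (TOP) sequence, a C at the first base followed by an unbroken run of pyrimidines, by which their translation is coupled to growth signals. The start sites that follow were picked, with their peaks known, from genes that share this start, to show that such genes differ in their peaks. Each line holds 20 bases before and 10 bases from the start site, from the RefSeq promoter table (GRCh38.p14), with the pyrimidine run from the first transcribed base in capitals.
EEF1A1: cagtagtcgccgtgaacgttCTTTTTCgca
EEF2: tgagtgttgacgtcagcgttCTCTTCCgcc
EIF4A2: gggtggttgggcgccgctgtCTTTTCagtc
EIF3D: ccgctgcgcgcgcatgtttcCTCTTTTCCT
EIF2S3: cagccggggtgatttccttcCTCTTTTggc
EIF2S3B: cagccggggtgactttcttcCTCTTTTggc
EEF1B2: attttccggtctcttcgggtCCTTTTTCCT

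These starts lie at chr6:73521023-73521052 (EEF1A1, minus strand), chr19:3985454-3985483 (EEF2, minus), chr3:186783557-186783586 (EIF4A2, plus), chr22:36529157-36529186 (EIF3D, minus), chrX:24054936-24054965 (EIF2S3, plus), chr12:10505870-10505899 (EIF2S3B, plus) and chr2:206159875-206159904 (EEF1B2, plus). EEF1A1, EEF2, EIF4A2, EIF3D and EIF2S3 had an end zone peak in all 6 lists. EIF2S3B and EEF1B2, which begin in the same manner, had no peak in any window of any list. Such an absence was found for 5 of the 60 genes, where 34.6% of all genes had it, and the others were EIF2A, which also has a TOP start, EIF5A2 and EIF5AL1. Of the further TOP genes not shown, EIF4B had an end zone peak in all 6 lists, and EIF2D, EIF3F, EIF3K and EIF3M had one in part of them.

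Peaks at these genes were frequent in the end zone and the gene body and rare at the promoter. In the end zone 41, 38 and 46 of the 60 genes had a peak in active replicates 1, 2 and 3, against 30, 18 and 25 genes in inactive replicates 1, 2 and 3. The mean share was 69.4% ± 6.74 (SD, n = 3) in the active lists, compared with 40.6% ± 10.0 in the inactive lists. Over all protein-coding genes the shares were 28.0% ± 10.4 and 8.70% ± 3.00. The groups did not overlap among the 60 genes or among all genes, and the smallest p that an exact permutation test allows with 3 libraries against 3 is 0.1. Within replicates 1 and 2 the lower active count, 38, was still above the higher inactive count, 30. The difference was 28.9 percentage points for the translation factor genes and 19.3 points for all genes, while the ratio of active to inactive was 1.71 for the former and 3.22 for the latter.

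Gene bodies held a peak at 34, 33 and 46 of the 60 genes in the active lists and at 18, 9 and 19 in the inactive lists. Their mean share of 62.8% ± 12.1 (SD, n = 3) against 25.6% ± 9.18 stood beside 32.0% ± 17.1 and 5.89% ± 2.31 of all genes. Part of these body peaks were the upstream arm of a peak that ran into the end zone, in 21, 19 and 22 genes of the active lists and in 10, 5 and 12 genes of the inactive lists. A peak that stayed inside the body was found at 24, 20 and 35 genes of the active lists and at 8, 4 and 7 of the inactive lists, and 13, 14 and 22 genes against 8, 4 and 7 had such a peak and none running into the end zone. Neither these counts nor those of peaks running into the end zone were made over all genes, and the active lists were longer. They are therefore not read as particular to these genes. In all 6 lists 8 genes had a body peak, where 2.53% of all genes did, and 8 had one in every active and no inactive list, where 6.85% did. At least 1 list held a body peak at 48 genes, where 53.4% of all genes had one. At promoter windows the picture was different. Only 4, 4 and 12 of the 60 genes had a promoter peak in the active lists and 1, 1 and 2 in the inactive lists, a mean of 11.1% ± 7.70 against 2.22% ± 0.962, which lay close to the 10.2% ± 7.89 and 1.92% ± 0.892 of all genes.

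**Figure D1:**
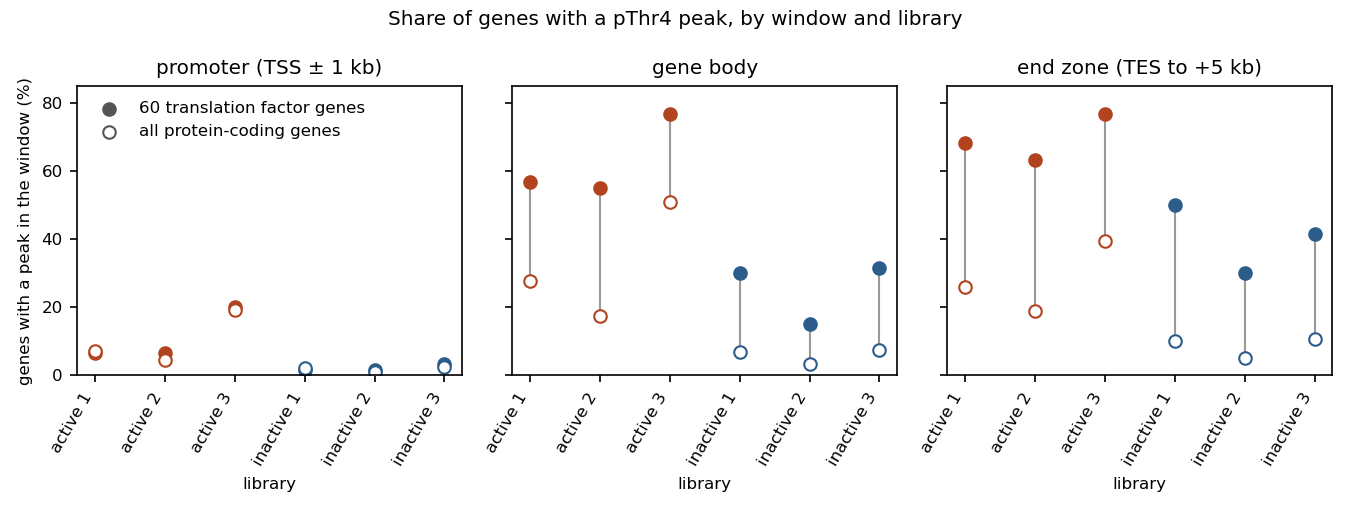
Share of genes with a peak (percent, vertical axis) in the promoter window, gene body and end zone of each library (horizontal axis), with filled points for the 60 translation factor genes, open points for all protein-coding genes, red for active and blue for inactive SCP1. Filled points lie far above open ones in the end zone and gene body of every library, and close to them at promoters.

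End zone peaks recurred across libraries at the same genes. Of the 60 genes, 16 had an end zone peak in all 6 lists, where 4.46% of all genes did: EIF1, EIF1AX, EIF2S3, EIF3D, EIF3G, EIF4A1, EIF4A2, EIF4A3, EIF4B, EIF4E, EIF4G1, EIF4H, EIF5, EIF5A, EEF1A1 and EEF2. A further 8 had one in all 3 active lists and no inactive list, where 5.45% of all genes did: EIF2B4, EIF3B, EIF3CL, EIF3M, EIF4ENIF1, EIF5B, EEF2K and EEF2KMT. In all, 38 genes had an end zone peak in every active list, where 16.6% of all genes did, and 48 had one in at least 1 list, where 41.9% did. No translation factor gene had an end zone peak in all inactive and no active lists. Covered bases of the end zone were higher in every active than in any inactive list for 24 genes, where 13.3% of all genes were, and lower for 0 genes, where 0.00509% were.

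**Figure D2:**
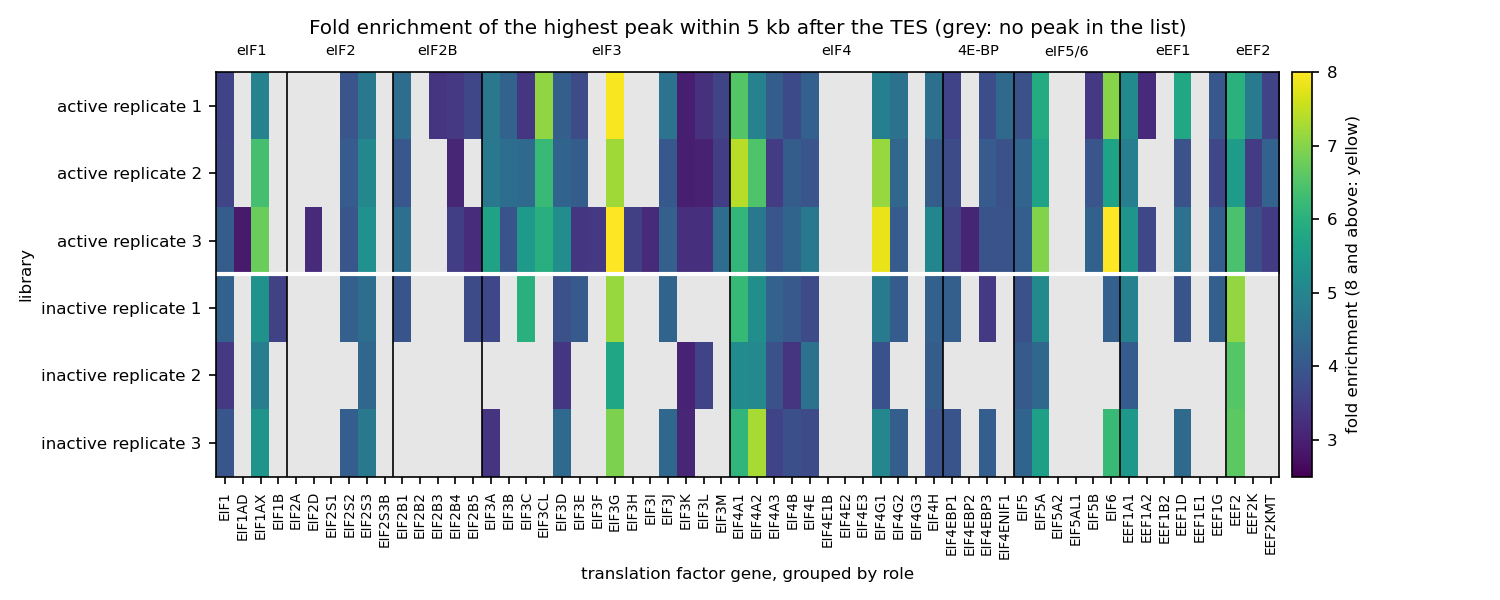
Fold enrichment of the highest end zone peak (colour) for each of the 60 genes (columns, grouped by the factor complex named above them) in each library (rows), with grey for no peak in the list. EIF3G, EIF4A1 and EEF2 are high in all 6 libraries, 8 of the 12 eIF4 columns are filled in both groups, and many eIF3 columns are filled in the active libraries alone or in part of the inactive ones.

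In what follows, fold enrichment is the value the peak caller gave the strongest peak of a window relative to its own background, a scale that is comparable within a list and only with care between lists. For windows with a peak in all 6 lists it was compared between groups on a log2 scale with limma, after each list was centred on its median over those windows. A difference is active minus inactive, and its adjusted p is Benjamini-Hochberg over all 875 end zones tested. Of these 875 end zones 40 passed an adjusted p of 0.05, or 4.57%, with 30 higher and 10 lower with active SCP1. Without the centring 60 passed, 57 higher and 3 lower, and with inactive replicate 2 left out 1 passed. With the replicate number as a block 53 passed, among them 1 translation factor gene, EIF4G1. In the main fit, which took no pairs, 0 of the 16 translation factor genes tested passed by limma. In that fit 4 of them had an unadjusted p under 0.05 (EEF2, EIF4G1, EIF3G and EIF5A). Of all 875 end zones tested 166 had one, so the 4 are not read as particular to this set. The median log2 difference of the 16 genes was 0.04, against 0.0038 over all end zones tested. The sign of the difference changed under at least 1 alternative for EIF2S3, EIF4A2, EIF4B, EIF4E, EIF4H, EIF5 and EEF1A1, so no direction is read for them. Only genes with a peak in every inactive list could enter this test, so it does not speak of the genes whose peaks were absent there.

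Of the start codon scanning factors, EIF1AX (chrX:20124525-20141838, minus strand), which encodes the X-linked copy of eIF1A, had an end zone fold enrichment of 4.94, 6.37 and 6.75 in active replicates 1, 2 and 3 and 5.31, 4.85 and 5.34 in inactive replicates 1, 2 and 3. Active replicates 2 and 3 were the highest, and the groups overlapped through active replicate 1. The log2 difference was 0.11 ± 0.104 (SE), with an adjusted p of 0.59 by limma. EIF1 (chr17:41688885-41692668, plus strand), the factor that keeps the scanning ribosome open until it meets the start codon, had end zone values of 3.61, 3.65 and 4.13 against 4.20, 3.42 and 3.97, which overlapped. Its end zone was covered over 2128, 2173 and 2028 bp in the active lists and over 743, 141 and 764 bp in the inactive lists. The covered stretch was thus longer in every active library, while the enrichment was not higher. EIF1AD had an end zone peak in active replicate 3 alone, and EIF1B had one in inactive replicate 1 alone.

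Among the genes of the ternary complex, in which eIF2 carries the initiator tRNA, EIF2S3 (chrX:24054956-24078810, plus strand) encodes the gamma subunit that binds the tRNA and GTP. Its end zone fold enrichment was 4.71, 5.05 and 5.29 in the active lists and 4.49, 4.32 and 4.70 in the inactive lists. All active values were above all inactive ones, the nearest pair being almost equal. After centring, the log2 difference was 0.06 ± 0.0823 (SE), adjusted p = 0.73 by limma. Its copy EIF2S3B on chromosome 12, whose start is shown beside it above, had no peak. EIF2S2, the beta subunit, had an end zone peak in every active list and in inactive replicates 1 and 3. EIF2S1, the alpha subunit whose phosphorylation shuts down initiation under stress, had no end zone peak in any list, and EIF2A had no peak at all.

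The exchange factor eIF2B reloads eIF2 with GTP. None of its 5 genes had an end zone peak in all 6 lists. EIF2B1 had one in each active list and in inactive replicate 1, and EIF2B4 in the active lists alone, with fold enrichments of 3.41, 3.09 and 3.52. By p these stood in the strongest 43.0%, 92.6% and 14.9% of their lists. EIF2B3 and EIF2B5 had peaks in part of the lists, and EIF2B2 had no end zone peak.

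The 14 genes of eIF3, the scaffold that holds the small subunit and the other factors together, all had an end zone peak in at least 1 list. There were 11, 11 and 14 of them in the active lists and 6, 4 and 5 in the inactive lists, and 2, EIF3G and EIF3D, in all 6. EIF3G (chr19:10115014-10119899, minus strand), an RNA-binding subunit, held the highest lowest value of the 16 genes with a peak in all 6 lists, at 7.94, 7.22 and 9.55 in the active lists and 7.16, 5.74 and 6.90 in the inactive lists. Each active value was above each inactive one. The log2 difference was 0.22 ± 0.0958 (SE, 95% interval 0.02 to 0.43), and it did not pass after adjustment (adjusted p = 0.22 by limma). The EIF3G end zone also holds PPAN and P2RY11 on the opposite strand.

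EIF3A (chr10:119033670-119080817, minus strand) encodes the largest eIF3 subunit. Its end zone values were 4.67, 4.71 and 5.67 in the active lists, with 3.70 and 3.33 in inactive replicates 1 and 3 and no peak in inactive replicate 2. The peak covered 2475, 1390 and 3111 bp of the end zone in the active lists and 275, 0 and 368 bp in the inactive lists, with no overlap. The strongest EIF3A peaks of the active lists began 2632, 2875 and 2717 bp after the TES. NANOS1 lies in this end zone on the opposite strand. EIF3B, another core subunit, had 4.25, 4.49 and 3.93 in the active lists, covering 5000, 4083 and 5000 bp of the 5000 bp window, and no inactive end zone peak. EIF3M had 3.62, 3.53 and 4.47 in the active lists and no inactive end zone peak. Of the other subunit genes, EIF3E, EIF3J, EIF3K and EIF3L had an end zone peak in every active list and in 1 or 2 inactive lists, and EIF3F, EIF3H and EIF3I had one in active replicate 3 alone.

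EIF3C and EIF3CL are near-identical copies of an eIF3 core subunit gene on chromosome 16, and reads from one may be placed at the other. EIF3CL had 7.09, 6.20 and 5.95 in the active lists and no inactive end zone peak. EIF3C had 3.38, 4.37 and 5.49 in the active lists and 5.99 in inactive replicate 1. The peaks were narrow and distant: the EIF3CL peaks began 4875, 4800 and 4858 bp after the TES and were 291, 400 and 358 bp wide, and 3 of the 4 strongest EIF3C peaks began between 4826 and 4839 bp after it. These values are uncertain on account of the duplication and lie at the far edge of the window.

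The cap-binding and helicase group, which recognises the 5′ cap and unwinds the leader, had end zone peaks at most of its genes in each group. Of its 12 genes 8, 8 and 8 had an end zone peak in the active lists and 8, 7 and 8 in the inactive lists, and 7 had one in all 6. The paralogues of the helicase eIF4A all belonged to the 7. EIF4A1 (chr17:7572825-7579006, plus strand) reached 6.53, 7.40 and 6.15 under active and 6.19, 5.16 and 6.12 under inactive enzyme, overlapping through active replicate 3, with a log2 difference of 0.11 ± 0.102 (SE, adjusted p = 0.61 by limma). EIF4A2 (chr3:186783577-186789897, plus strand) had 4.94, 6.48 and 4.70 with active and 5.22, 5.10 and 7.28 with inactive SCP1, so that the highest value was an inactive one, and its log2 difference was −0.22 ± 0.143 (SE, adjusted p = 0.44). EIF4A3, better known as a core protein of the exon junction complex, had 4.12, 3.48 and 3.96 against 4.23, 3.86 and 3.60, which overlapped. The end zone of EIF4A1 also holds CD68 and MPDU1 on the same strand, and that of EIF4A2 holds RFC4 on the other.

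EIF4G1 (chr3:184314606-184335358, plus strand), the scaffold that joins the cap-binding protein to the helicase and to poly(A)-binding protein, had 4.87, 7.16 and 7.81 with active and 4.78, 3.89 and 5.04 with inactive SCP1. Active replicates 2 and 3 were far above the rest, and active replicate 1 lay among the inactive values. The log2 difference was 0.42 ± 0.137 (SE, 95% interval 0.13 to 0.71), with an adjusted p of 0.088 by limma. It passed with an adjusted p of 0.0086 when active replicate 1 was left out, and the adjusted p lay between 0.13 and 0.34 when any other library was. With the replicate number as a block the adjusted p was 0.039 by limma. Without centring it was 0.055, and in replicates 1 and 2 alone 0.46. Covered bases, at 1064, 1080 and 1068 against 741, 473 and 989 bp, did not overlap, and FAM131A on the same strand lies in the window. Its relatives differed: EIF4G2, a cap-independent form, had 4.54, 4.31 and 4.09 in the active lists and 4.10 and 4.16 in inactive replicates 1 and 3, and EIF4G3 had no end zone peak in any list.

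EIF4E (chr4:98879276-98929133, minus strand), the cap-binding protein itself, had 4.19, 3.95 and 4.72 with active and 3.75, 4.55 and 3.76 with inactive SCP1, which overlapped, and a log2 difference of 0.0015 ± 0.107 (SE, 95% interval −0.23 to 0.23, adjusted p = 0.996 by limma). Its peaks lay well beyond the gene end, beginning 2180, 2934 and 2980 bp after the TES in the active lists and 3069, 3614 and 3015 bp after it in the inactive lists. The related genes EIF4E1B, EIF4E2 and EIF4E3 had no end zone peak. EIF4H (chr7:74174356-74197096, plus strand), which stimulates the helicase, had 4.53, 4.13 and 5.03 against 4.19, 4.13 and 3.96, overlapping, with a log2 difference of 0.06 ± 0.0872 (SE, adjusted p = 0.75). Its end zone was covered over 2566, 2046 and 3364 bp with active and 672, 702 and 1991 bp with inactive SCP1, without overlap.

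The eIF4E-binding proteins hold the cap-binding protein back until they are phosphorylated. EIF4EBP1 had 3.60, 3.75 and 3.59 in the active lists and 4.17 and 3.94 in inactive replicates 1 and 3. Its covered bases were 3928, 3595 and 4373 with active and 1138, 0 and 2244 with inactive SCP1, higher in each active list although the enrichment was not. EIF4EBP2 had 1 end zone peak, of 3.08 in active replicate 3. EIF4EBP3 had 3.82, 4.09 and 3.91 in the active lists and 3.44 and 4.15 in inactive replicates 1 and 3. EIF4ENIF1, which carries eIF4E into the nucleus, had 4.40, 3.86 and 3.93 in the active lists and no end zone peak in the inactive lists, although its gene body had a peak in all 6 lists. Its end zone is shared with DRG1 on the opposite strand.

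Among the genes for subunit joining and the later steps, EIF5A (chr17:7306999-7312463, plus strand) encodes the hypusine-carrying factor that relieves stalled ribosomes. It had 5.88, 5.69 and 6.95 with active and 5.13, 4.34 and 5.60 with inactive SCP1. The groups did not overlap, and the log2 difference was 0.21 ± 0.0918 (SE, 95% interval 0.01 to 0.40, adjusted p = 0.23 by limma). GPS2 and NEURL4 lie in its end zone on the other strand. The paralogues EIF5A2 and EIF5AL1 had no peak in any window. EIF5 (chr14:103334237-103345025, plus strand), which triggers GTP hydrolysis on eIF2, had 3.87, 4.30 and 4.14 against 3.87, 4.06 and 4.28, with overlap and a log2 difference of −0.08 ± 0.0896 (SE, adjusted p = 0.67). EIF5B, the subunit joining GTPase, had 3.41, 3.96 and 4.21 in the active lists and no inactive end zone peak. EIF6, which keeps the ribosomal subunits apart, had an end zone peak in every active list and in inactive replicates 1 and 3.

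Of the elongation genes, EEF1A1 (chr6:73515750-73521032, minus strand) encodes the form of eEF1A that delivers aminoacyl tRNA in most cells. It had 5.12, 4.85 and 5.36 with active and 4.92, 4.11 and 5.43 with inactive SCP1. These overlapped, and the log2 difference was −0.0014 ± 0.0899 (SE, 95% interval −0.19 to 0.19, adjusted p = 0.996 by limma). The covered bases were 4005, 3832 and 4288 against 3330, 3239 and 3168, so the peak reached further in each active list at an enrichment that differed by little. EEF1A2, the form of muscle and neurons, had 3.16 and 3.68 in active replicates 1 and 3 and no other end zone peak. EEF1B2, a guanine nucleotide exchange subunit with a TOP start, had none. EEF1G and EEF1D, further subunits of the same complex, had an end zone peak in every active list and in 1 and 2 inactive lists, and EEF1E1 had none.

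EEF2 (chr19:3976056-3985463, minus strand) encodes the GTPase that moves the ribosome by a codon. It stood in the other direction from EIF3G: 6.01, 5.53 and 6.41 with active and 7.11, 6.55 and 6.62 with inactive SCP1, each active value below each inactive one. The log2 difference was −0.27 ± 0.0827 (SE, 95% interval −0.45 to −0.09), with an adjusted p of 0.071 by limma. It passed, at −0.35 and an adjusted p of 0.020, when 353 end zones with a −log10 p of at least 6 in every list were tested, and did not pass in the other alternatives. The peaks differed in shape. With active SCP1 they began 5279, 6356 and 6786 bp before the TES and were 6411, 7506 and 7951 bp wide, reaching back over most of the gene, while with inactive SCP1 they were 1228, 865 and 1261 bp wide and lay at the gene end. The wider peaks were those with the lower enrichment, and the part of width in that difference was not tested. DAPK3 lies in the end zone on the same strand. Of its modifying enzymes, EEF2K had 4.74, 3.47 and 3.84 and EEF2KMT 3.63, 4.22 and 3.47 in the active lists, and neither had an inactive end zone peak.

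**Figure D3:**
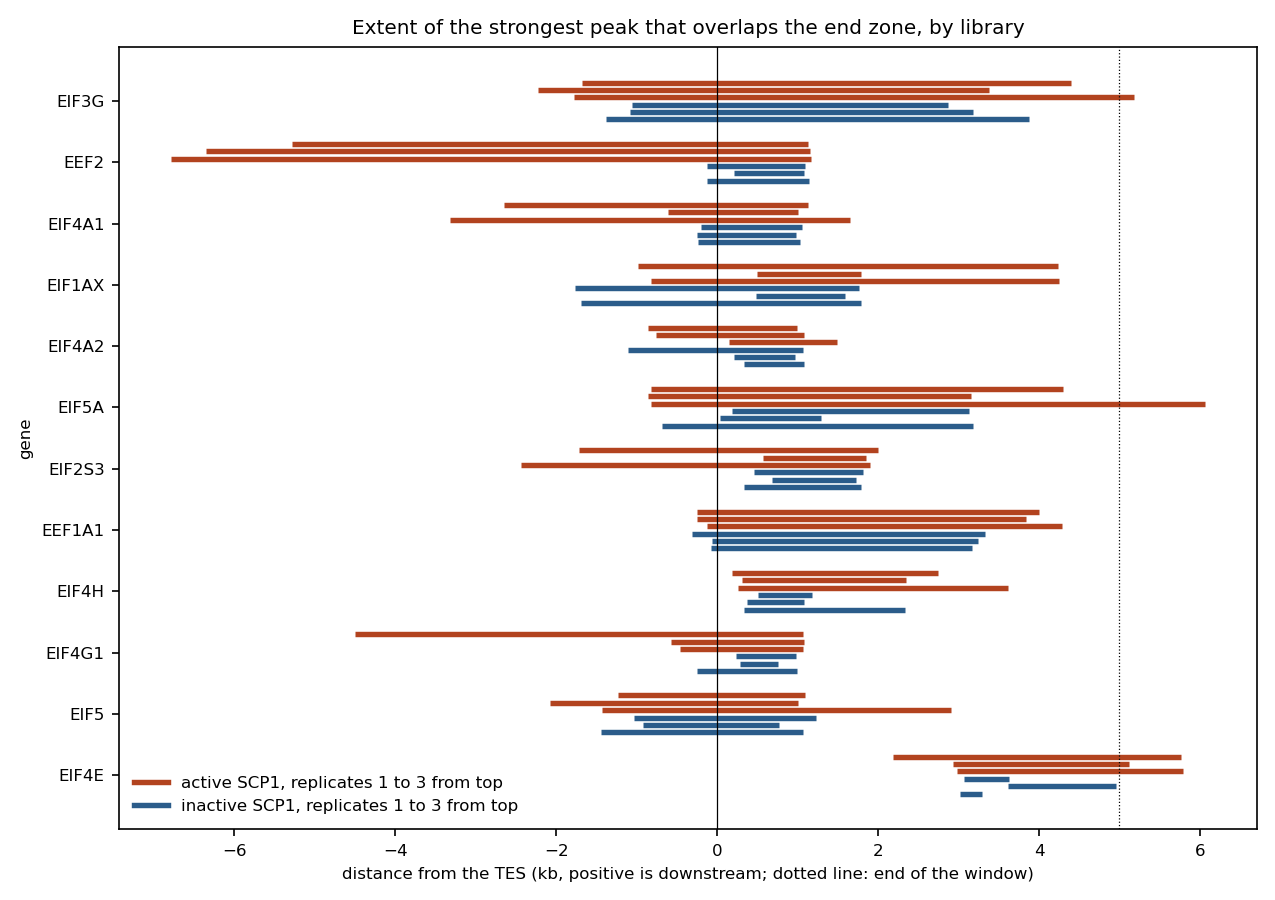
Extent of the strongest end zone peak (bars, distance from the TES in kb, positive downstream) at the 12 genes with the highest lowest fold enrichment over the 6 lists, red for active and blue for inactive SCP1, replicates 1 to 3 from top to bottom within each colour. The red bars of EEF2 reach 5279 to 6786 bp upstream of the TES and the blue ones at most 131 bp.

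Wider peaks were seen over the genes as a whole. The strongest end zone peak of a translation factor gene had a median width of 2862, 2059 and 2798 bp in the active lists and 1183, 956 and 1261 bp in the inactive lists, a mean of 2573 bp ± 446 (SD, n = 3) against 1133 bp ± 158. Over all peaks of a list the median widths were alike, 811 bp ± 19.1 against 803 bp. That median runs over every peak, weak ones included, and is not a like comparison with the strongest peak of a gene. Widths at a common threshold were not read, and the active lists reached weaker peaks. End zone coverage of all protein-coding genes with a peak there was also longer in the active lists, with medians of 1243, 1142 and 1516 bp against 899.5, 811 and 879 bp, where the translation factor genes had 1578, 1531 and 2018 bp against 1054, 920 and 992 bp. At the 16 genes with a peak in all 6 lists, where the same genes are compared, the median width was 3374 bp ± 1123 with active and 1338 bp ± 247 with inactive SCP1. The groups did not overlap in these medians. At these 16 genes the median reach past the TES was 2025 bp ± 360 with active and 1378 bp ± 111 with inactive SCP1. Over all translation factor genes with an end zone peak, a set that differed between lists, it was 2131 bp ± 352 and 1457 bp ± 94.5. In this wider set 21, 19 and 22 of 41, 38 and 46 active peaks began upstream of the TES. In the inactive lists 10, 5 and 12 of 30, 18 and 25 did. The median fold enrichment of the wider set was 4.15 ± 0.0318 with active and 4.22 ± 0.122 with inactive SCP1.

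In bins around the TES, coverage rose to a single maximum shortly after the gene end. The maximum lay in the 250 bp bin centred 625 bp after the TES in active replicates 1 and 3 and in all inactive replicates, and in the bin centred at 875 bp in active replicate 2. There 31, 31 and 36 of the 60 genes were covered in the active lists and 21, 12 and 17 in the inactive lists. All protein-coding genes had their maximum at 875 bp in 5 lists and at 625 bp in inactive replicate 3, covering 9.09% to 20.1% of genes in the active and 2.16% to 4.42% in the inactive lists.

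**Figure D4:**
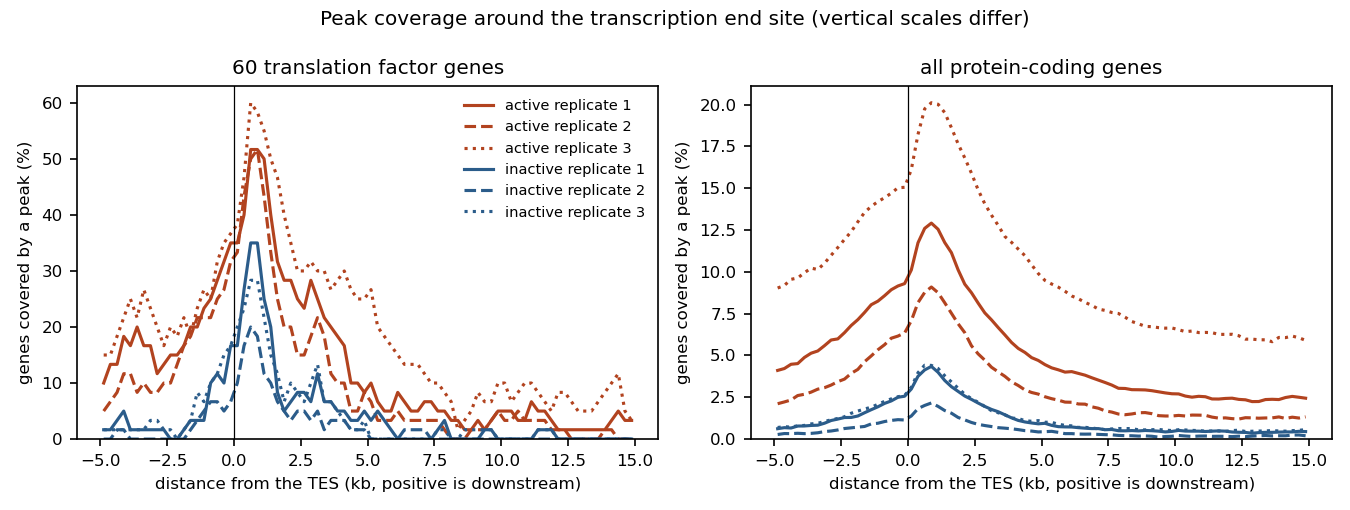
Share of genes covered by a peak (percent, vertical axis) by distance from the TES (kb, horizontal axis), for the 60 translation factor genes at left and all protein-coding genes at right on another vertical scale, 1 line per library. In every library the maximum lies within the first kilobase after the TES, and the translation factor genes reach 60% in active replicate 3 where all genes reach 20.1%.

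Between lists of equal length the difference in number was small. When every list was reduced to its 1163 strongest peaks, the length of the shortest list, an end zone peak was found at 21.3 ± 1.53 (SD, n = 3) of the 60 genes with active and 19.7 ± 2.08 with inactive SCP1, or 35.6% ± 2.55 against 32.8% ± 3.47, beside 6.36% ± 0.277 and 5.60% ± 0.307 of all genes. The groups then overlapped. In this form 12 genes had a peak in all 6 lists, where 2.39% of all genes did: EIF1AX, EIF2S3, EIF3D, EIF3G, EIF4A1, EIF4A2, EIF4G1, EIF4H, EIF5, EIF5A, EEF1A1 and EEF2. Only EIF3A and EIF3CL had one in all active and no inactive lists, where 0.336% of all genes did. With peaks of a −log10 p of at least 6 in every list, the counts were 24.3 ± 2.52 and 14.3 ± 3.06 beside 8.45% ± 2.08 and 3.81% ± 0.916 of all genes. Again EIF3A and EIF3CL were the 2 genes found in all active and no inactive lists. For EIF3A this rests on the cutoff, since inactive replicates 1 and 3 held a peak there with a −log10 p of 5.32 and 5.13. The EIF3CL peaks lie at the far edge of the window. Covered bases were higher in every active list for 6 genes at equal peak number, where 2.79% of all genes were, in place of 24.

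**Figure D5:**
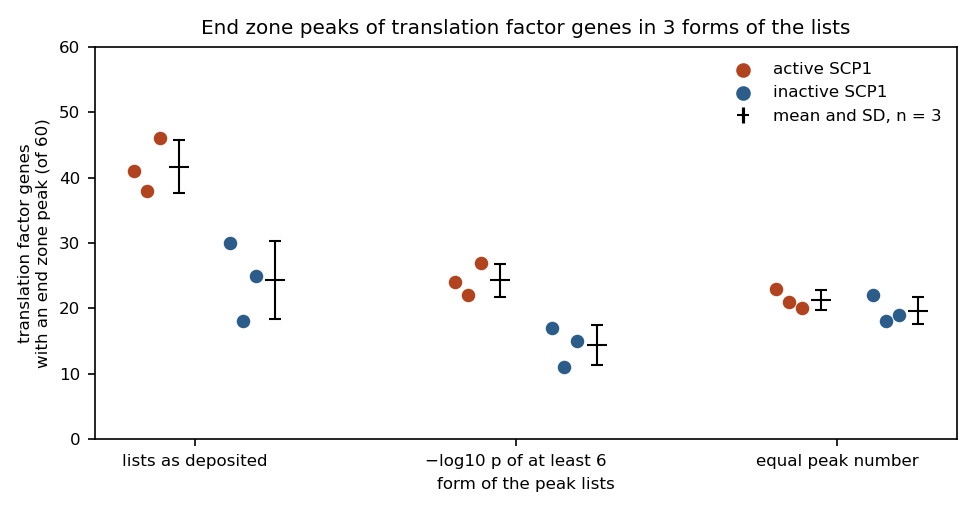
Number of the 60 translation factor genes with an end zone peak (vertical axis) in each library with the lists as deposited, with a common p cutoff and with equal peak number (horizontal axis), red for active and blue for inactive SCP1, with bars for the mean and SD of 3 libraries. The groups are apart in the first 2 forms and overlap at equal peak number.

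Promoter peaks were few, and they are described here by gene. A promoter peak in all 6 lists was found at 1 gene, EIF4A1, where 0.825% of all genes had one. In all active and no inactive lists it was found at 2 genes, EEF1G and EIF1, where 1.28% did, and in all active lists at 4, with EIF4EBP3, where 3.90% did. At least 1 list held a promoter peak at 12 genes, where 20% of all genes had one. Covered bases of the promoter window were higher in every active than in any inactive list for 3 genes, where 2.93% of all genes were. These shares are near those of all genes. Of the 12 genes, 8 had their promoter peak in active replicate 3 alone.

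EIF4A1 had a promoter fold enrichment of 4.82, 3.98 and 6.40 with active and 4.37, 3.58 and 3.79 with inactive SCP1, overlapping through active replicate 2, and the log2 difference was 0.17 ± 0.131 (SE, −0.02 in replicates 1 and 2 alone, adjusted p = 0.54 by limma over 162 promoter windows, of which 1, or 0.617%, passed). In active replicate 3 it was peak 37 of 36892 by strength. The peaks straddled the TSS, from between 267 and 1496 bp before it to between 462 and 1355 bp after it. The end of the neighbouring gene SENP3 lies inside the same window. EEF1G (chr11:62559596-62573891, minus strand), a subunit of the eEF1 complex, had promoter values of 3.34, 3.91 and 3.77 in the active lists. Its peaks lay mostly upstream, from 2448, 1641 and 1545 bp before the TSS to 356 bp after it in active replicate 1 and to 468 and 304 bp before it in active replicates 2 and 3. EIF1 had 3.63, 3.37 and 2.84 in the active lists, and its peaks lay inside the gene, beginning 79, 295 and 249 bp after the TSS. EIF4EBP3, a gene of 1914 bp from TSS to TES that also forms the last part of ANKHD1-EIF4EBP3, had 3.82, 4.09 and 3.91 in the active lists and 4.15 in inactive replicate 3, and in the active lists the same peak spanned the whole gene.

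The 250 bases before the TSS of the 3 genes that had a promoter peak in every active list and whose peaks do not span the gene are shown for the reader to compare, from the RefSeq promoter table, with capitals for the GC box GGGCGG, the CCAAT box CCAAT and the TATA box TATAAA on either strand.
EIF4A1: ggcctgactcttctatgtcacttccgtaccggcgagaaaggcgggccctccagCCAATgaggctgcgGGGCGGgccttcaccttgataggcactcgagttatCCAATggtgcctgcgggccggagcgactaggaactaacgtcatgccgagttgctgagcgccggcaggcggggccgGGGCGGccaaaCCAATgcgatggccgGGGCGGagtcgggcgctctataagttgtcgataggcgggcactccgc
EEF1G: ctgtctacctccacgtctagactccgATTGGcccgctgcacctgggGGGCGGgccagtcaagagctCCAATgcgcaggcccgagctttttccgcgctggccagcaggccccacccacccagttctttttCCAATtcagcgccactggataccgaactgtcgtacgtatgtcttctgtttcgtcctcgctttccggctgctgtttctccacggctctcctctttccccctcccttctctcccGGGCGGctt
EIF1: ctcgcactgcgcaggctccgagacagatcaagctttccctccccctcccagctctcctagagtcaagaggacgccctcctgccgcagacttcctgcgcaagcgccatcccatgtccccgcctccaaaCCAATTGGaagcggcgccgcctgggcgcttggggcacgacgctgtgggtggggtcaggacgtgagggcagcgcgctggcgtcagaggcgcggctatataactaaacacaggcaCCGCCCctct

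They lie at chr17:7572575-7572824 (EIF4A1, plus strand), chr11:62573892-62574141 (EEF1G, minus strand) and chr17:41688635-41688884 (EIF1, plus strand). The EIF4A1 stretch holds 3 GC boxes and 3 CCAAT boxes, that of EEF1G 2 and 3, and that of EIF1 1 and 2, where the pair of CCAAT matches in EIF1 overlap on opposite strands. None holds TATAAA. Among 15812 coding genes in the table, 56% hold a GC box in this stretch, 34.4% a CCAAT box and 9.25% a TATA box, so such matches are common and describe the letters only.

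Other features of the genes were counted without a test. A TOP start, taken as a C followed by at least 4 pyrimidines, was listed for 13 of the 49 translation factor genes in the promoter table (26.5%), against 6.24% of all coding genes in it. Of the 13, 8 had an end zone peak in every active list and 6 in all 6 lists, and 0 had a promoter peak in any list. Of the 36 genes with an entry and no TOP start the counts were 21, 9 and 9. snoRNA genes lay inside 8 of the 60 genes, and 7 of these had an end zone peak in every active list and 5 in all 6, the exception being EEF1B2, which hosts SNORD51 and SNORA41. Of the 52 genes without one, 31 and 11 did. Among the 30 shorter genes 19 had an end zone peak in every active list and 10 in all 6, and among the 30 longer genes 19 and 6. None of these peak counts was made over all genes with the same feature, so none is read as particular to these genes. The 60 genes were shorter than protein-coding genes in general, with a median of 18040 bp against 24807 bp.

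Many of the end zones were shared with neighbouring genes. In 24 of the 60 end zones another protein-coding gene was annotated, and 8 of the 24 had a peak in all 6 lists, where 7.99% of all such end zones did. In the 36 end zones with no other protein-coding gene, 8 had a peak in all 6 lists, where 2.26% of all such end zones did: EIF1, EIF1AX, EIF2S3, EIF4A3, EIF4E, EIF4H, EIF5 and EEF1A1. In these 36 the active lists held a peak at 22, 19 and 25 genes and the inactive lists at 15, 10 and 11, where all such end zones had one in 16.5%, 11.3% and 28.6% and in 5.51%, 2.94% and 5.92%.

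Other genes of translation were read in the same manner from a list of 64 genes for release factors, poly(A)-binding proteins, factor kinases, factor-modifying enzymes, further regulators and mitochondrial factors, of which 63 were matched. An end zone peak in all 6 lists was found at 6 of the 63 (9.52%), in every active list at 20 (31.7%) and in every active and no inactive list at 7 (11.1%). The 6 were ABCE1, which splits ribosomes after termination, PABPC4, a poly(A)-binding protein, RPS6KB2, a ribosomal protein S6 kinase, TPT1, GTPBP2 and TUFM, the mitochondrial counterpart of eEF1A. By group, 4 of 8 termination and recycling genes had an end zone peak in every active list, 5 of 15 genes for poly(A) binding and cap regulation, 3 of 12 kinases and methyltransferases, 2 of 10 genes for hypusine, diphthamide and selenocysteine, 5 of 9 other regulators and 1 of 9 mitochondrial factors.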

How the data were processed

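The data were 6 pThr4 ChIP-seq peak lists, 3 with active and 3 with inactive SCP1. Per the submitters' processing notes, reads were processed with FastQC, cutadapt 4.6 and Bowtie2 2.5.2 on hg38. The peak caller, its version and its control are not given in the sources used here. For each peak the authors deposited a fold enrichment (a ratio over background), a −log10 p-value and −log10 q-value, and a score, which was not used. The lowest deposited −log10 q-value was just above 1 in each list. Peaks were called per library. Fold enrichment and p rank were taken from the strongest peak in a window.

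Gene ends came from the RefSeq table of GRCh38.p14. Strand came from the RefSeq promoter table for 49 of the 60 genes and by name from GENCODE release 44 for 11, whose coordinates were not used. It was found for 98.3% of 19974 protein-coding genes. The outermost start was used.

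The members and lists were chosen with earlier results of these data known. Values by library are given for up to 12 genes with an end zone peak in all 6 lists, ranked by their lowest fold enrichment, for genes with a promoter peak in every active list, for genes with an end zone peak in active lists alone, and for paralogues. EIF3A was named after its values were seen. Covered bases were compared between groups with the exact permutation test over 20 assignments of the 6 libraries, a gene being called where the groups did not overlap. Log2 fold enrichment was tested with limma 3.58.1 in R 4.3.3, and the script was tested on simulated data. P-values measure the spread between these libraries. The other steps used Python 3.11.15, pandas 2.3.3 and numpy 2.4.6. Alternatives were equal peak number, a −log10 p of at least 6, a −log10 q of at least 2, an overlap of 200 bp, other window sizes, each library left out, replicates 1 and 2 alone, a replicate block and no centring. Restriction to end zones free of other coding genes, any listed start, and limma on replicates 1 and 2 were added after seeing the data.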

Additional observations from a re-analysis of the deposited data

How the results depend on the processing

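Depth is unknown, so precision rests on 3 libraries a group. No count changed direction under any alternative. The active minus inactive difference in genes with an end zone peak, 17.3 of 60, fell to 1.67 at equal peak number, to 10 with a −log10 p of at least 6 and to 10 in the 36 end zones free of other coding genes, an alternative chosen after seeing the data. For gene bodies it went from 22.3 to 3.33 at equal peak number and 9.33 with the p cutoff, and for promoters from 5.33 to 0.333 at equal peak number. Over all genes the active and inactive end zone shares were 28.0% and 8.70% as deposited. They fell to 6.36% and 5.60% at equal peak number and to 8.45% and 3.81% with the p cutoff. For gene bodies the shares of all genes were 5.21% and 3.63% at equal peak number and 7.17% and 2.51% with the p cutoff. At promoters they were 2.24% and 1.37% at equal peak number. Genes with an end zone peak in all lists numbered 16, and 9 with the p cutoff, 10 with a −log10 q of at least 2 and 8 in free end zones. Of all such free end zones 2.26% had one in all lists. Leaving out inactive replicate 2 gave 24. End zone peaks in every active and no inactive list, at 8 genes, were left at 2 with equal peak number, 2 with the p cutoff and 4 in free end zones. Of all such free end zones 3.35% had this pattern. Promoter peaks in every active and no inactive list, at 2 genes, were left at 0 with equal peak number, 0 with the p cutoff and 0 with the q cutoff. Higher covered bases in the end zone, at 24 genes, were left at 6, 8 and 13 with equal peak number, the p cutoff and free end zones, and at promoters the 3 genes became 0, 0 and 1 with equal peak number, the p cutoff and the q cutoff. Overlap of 200 bp and other window sizes kept these counts within 1.5 times. Where no share of all genes stands beside a count, its change is not read as particular to these genes. Counting any listed promoter start added EIF4G1 in active replicates 1 and 3. Fold enrichment at the end zone was called for 40 windows of all genes by limma, for 1 to 67 when a library was left out (8 without active replicate 1, 67 without active replicate 2, 10 without active replicate 3, 13, 1 and 9 without inactive replicates 1, 2 and 3), for 60 without centring and for 0 in replicates 1 and 2 alone, where 105 had an unadjusted p under 0.05. Without centring the median log2 difference of all windows tested shifted to 0.10 at end zones and to 0.19 at promoters. At promoter windows 1 was called, and 0 to 2 when a library was left out (0 without active replicate 1, inactive replicate 1 or inactive replicate 3), 17 without centring, 0 in replicates 1 and 2 alone and 0 with the p cutoff, with 16 to 25 at an unadjusted p under 0.05 where none was called. Of the 16 translation factor end zones 0 were called, and 0 to 1 when a library was left out, and 1, EEF2, with the p cutoff. Some log2 differences changed sign. That of EEF1A1 was 0.0922 without centring, 0.0658 in replicates 1 and 2 alone and −0.0741 to 0.0666 when a library was left out. That of EIF4E was −0.104 in replicates 1 and 2 alone and −0.0670 to 0.132 when a library was left out. That of EIF4B was 0.02 and ranged from −0.0240 to 0.0705 when a library was left out. In replicates 1 and 2 alone that of EIF4A2 was 0.0504, that of EIF4H −0.0270 and that of the EIF4A1 promoter −0.0222. That of EIF2S3 was −0.0154 with the p cutoff and that of EIF5 0.0134 without centring.

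With the replicate number as a block, 53 end zones and 11 promoter windows were called, and 1 translation factor gene, EIF4G1 (adjusted p = 0.039 by limma). Deviations of same-numbered libraries correlated at −0.0033, 0.046 and 0.083 over end zones and at 0.094, −0.046 and 0.078 over promoters. The labels do not state a pairing by number, and these correlations cannot exclude one. Lysate was divided between the enzymes, and the peak name tags match by replicate number, so libraries of the same number may share a lysate. The main fit took no pairs, and the block is given as an alternative. Over end zones active replicate 1 correlated best with inactive replicate 2, at 0.046. Active replicates 2 and 3 correlated best there with the inactive replicate of their own number, at 0.046 and 0.083. Over promoters active replicates 1 and 3 did so, at 0.094 and 0.078, and active replicate 2 correlated best with inactive replicate 1, at 0.081.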

Other observations

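Processed and other pseudogenes of the same families, 162 in the RefSeq table, had a peak in 1, 1 and 8 cases in active replicates 1, 2 and 3 and in 1, 1 and 0 cases in inactive replicates 1, 2 and 3. In active replicate 3 this was 4.94% of them, beside 5.64% of all pseudogenes. In active replicates 1 and 2 it was 0.617% in each, beside 1.80% and 0.917% of all pseudogenes. In inactive replicates 1, 2 and 3 it was 0.617%, 0.617% and 0%, beside 0.304%, 0.164% and 0.413%. EIF3FP1 was the pseudogene found in active replicates 1 and 2 and in inactive replicates 1 and 2, and it was among the 8 in active replicate 3.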
